A study of Mus musculus with 9 samples.

Results

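Brown fat and soleus muscle were compared together with white fat to describe the genes that the 2 oxidative tissues held at a similar level and that white fat held at a different one. All 9 RNA-seq libraries of the series entered the comparison, 3 of brown fat, 3 of soleus and 3 of white fat, with equal weight for brown fat and soleus. Every group came from male mice of the strain C57BL/6J, wild type and 3 months old, and no group had a treatment or an altered gene according to the labels. The labels give 3 as the number of mice but do not tie libraries to animals, and they do not name the depot of the white fat. Expression is given in FPKM, which scales fragment counts by transcript length and by the size of each library, and 9913 of 17753 genes reached 1 FPKM in at least 3 of the 9 libraries and were tested.

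Mitochondria make most of the ATP of an oxidative cell by passing electrons from NADH and succinate along the respiratory chain (complexes I to IV) and using the resulting proton gradient to drive ATP synthase. Brown adipocytes burn that gradient as heat through the uncoupling protein Ucp1, and the slow fibres of the soleus, a postural muscle of the hind limb, use it for sustained contraction. White adipocytes store triglyceride and hold fewer mitochondria. Nuclear genes for mitochondrial proteins are known targets of the coactivator PGC-1alpha and of the factors it works with, among them the oestrogen-related receptors (ERR), NRF1 and GABP.

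FPKM summed to between 213936 and 352502 per library. These sums split along the comparison: white fat libraries reached at most 234886, while no brown fat or soleus library was under 308950. The FPKM scale used here keeps this offset, and TPM, which gives every library the same sum, removes it. The median difference from white fat over all tested genes was 0.03 log2 units in brown fat and -0.35 in soleus. With TPM these medians were lower (-0.43 and -0.78), and with median of ratios scaling they were higher (0.08 and 0.02). Of each sum, the top 20 genes took 27.8% to 29.3% in soleus, 18.7% to 19% in brown fat and at most 16.1% in white fat. Relative depth, read from the spacing of low values, was lowest in white fat replicate 2 (set to 1) and highest in white fat replicate 3 (3.58). Summed markers fitted the labels. The 12 skeletal myofibre markers summed to 27723 to 33619 FPKM in soleus, against 80.4 to 409 for brown fat and 35.8 to 54.0 for white fat, although 4 of them were listed at 0 in soleus. The 6 adipocyte markers summed to 5121 to 5620 FPKM in white fat, with 2285 to 2610 for brown fat and 31.1 to 159 for soleus, highest in soleus replicate 1. The 8 brown adipocyte markers summed to 5758 to 6598 FPKM in brown fat but only 9.19 to 15.5 in soleus, and white fat had 15.9, 6.01 and 64.6 in replicates 1, 2 and 3. In these bulk samples, fewer cells of a type and less RNA per cell cannot be told apart.

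Over all tested genes, the mean of brown fat and soleus lay above white fat for 3400 genes (34.3%) and below it for 4549 (45.9%) at an adjusted p under 0.05, in limma's moderated test with Benjamini-Hochberg adjustment. Together these were 80.2% of the tested genes. Brown fat alone was above white fat for 38% of genes and below it for 34.8%, and soleus alone was above it for 29.7% and below it for 54.5%. An average can hide a split between tissues, and 436 of the higher and 505 of the lower genes differed from white fat in opposite directions in the 2 tissues. A gene was therefore counted as shared only if it passed the test in the average and in each tissue, lay at least 1 log2 unit from white fat in both, in the same direction, and had a 95% interval of brown fat minus soleus within 1 log2 unit, a 2-fold range, which 57.8% of all tested genes met. This left 271 shared higher genes (2.73% of those tested) and 784 shared lower genes (7.91%). The comparisons of brown fat and of soleus with white fat share the same 3 white fat libraries, so their values are given side by side and their likeness is not counted as evidence. All log2 differences are on the scale of log2(FPKM + 1), which compresses genes near 0. That matters most for the lower genes, since 364 of the 784 were under 1 FPKM in both brown fat and soleus and would look alike on this scale at any such value, while 343 were at 1 FPKM or more in both. Of the 784, 322 had no brown fat or soleus library at 1 FPKM, so they entered the tests only through white fat and could differ in no other direction (496 of all 9913 tested genes entered that way). Of the 271 shared higher genes, 13 had no white fat library at 1 FPKM, as had 685 of all 9913 tested genes. These entered the tests only through the oxidative tissues and could be shared in no other direction. Counts of list members below are read against the shares over all tested genes, 34.3% higher, 45.9% lower, 2.73% shared higher and 7.91% shared lower.

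Mitochondrial genes made up much of the higher side. Of 337 tested members of 19 mitochondrial lists, 302 were higher and 17 lower than white fat in the average. Of the 337, 115 were shared higher and 4 shared lower, so that 42.4% of the 271 shared higher genes were on these lists. The mitochondrial carriers were more mixed, with 17 of 34 higher, 10 lower and 2 shared in each direction. Of the 271 shared higher genes, 79 were at 100 FPKM or more in both oxidative tissues, a count that was not compared with all tested genes. On the lower side, 7 lists (collagen and matrix, complement, white fat hormones and selective genes, and markers of macrophages, lymphoid cells, mesothelium and progenitors) held 67 tested genes, of which 35 were shared lower, 4.46% of the 784. Of their members, 7 of mesothelium, 3 of complement, 1 lymphoid and 1 of white fat hormones entered the tests only through white fat. These could only be lower. The lymphoid list had 1 tested gene of 9. Scaling changed the balance of the calls, with 42.8% of called genes on the higher side here, 21.5% after rescaling FPKM to TPM and 55.8% after median of ratios scaling. The median difference over all genes was -0.11 log2 units here, -0.58 with TPM and 0.11 with median of ratios, so differences of that size are not read as directions. With TPM, which removes the offset in FPKM sums between white fat and the oxidative tissues, 144 genes were shared higher and 1326 shared lower.

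**Figure D1:**
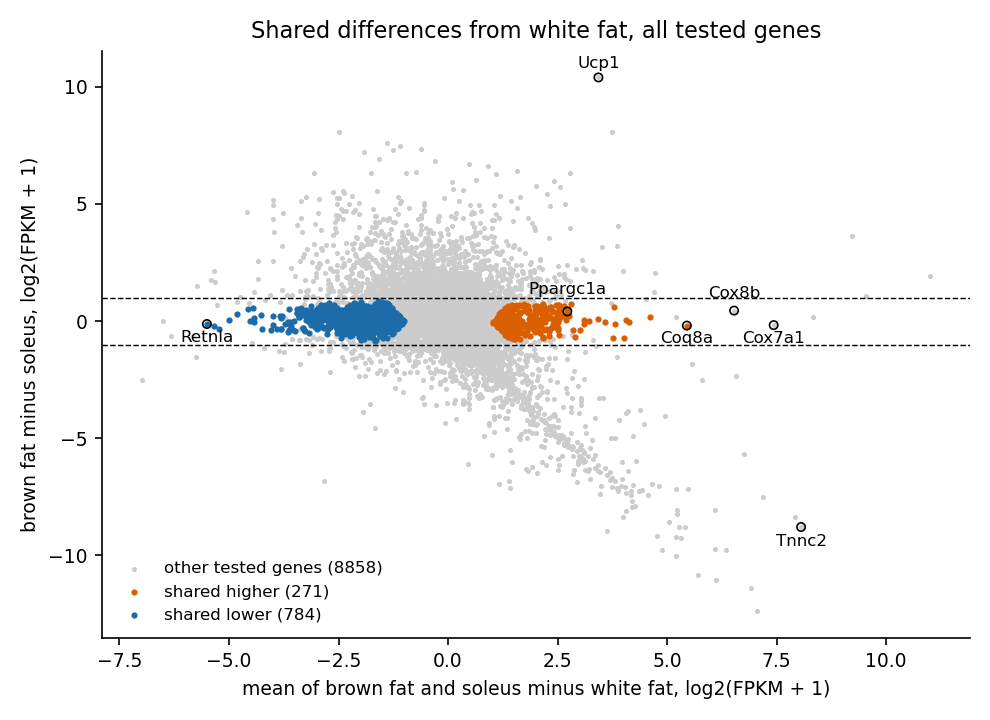
Each point is a tested gene, placed by the mean of brown fat and soleus minus white fat (x axis, log2(FPKM + 1)) and by brown fat minus soleus (y axis, same scale), with 271 shared higher genes in orange, 784 shared lower genes in blue and dashed lines at 1 log2 unit. Cox7a1 and Cox8b lie far to the right near a difference of 0 between brown fat and soleus, while Ucp1 and Tnnc2 lie far from it.

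The 250 bases before the annotated start site are shown for 3 mitochondrial genes of the shared higher set, because each holds a textbook motif of a factor that works with PGC-1alpha. They are the shared higher mitochondrial genes with the largest average difference whose window holds the ERR element TCAAGGTCA (Timm8b), the NRF1 motif GCGCATGCG (Atp5k) and the GABP and ETS motif ACCGGAAGT (Mrpl51). Capitals mark the motif, which in Atp5k also matches the other strand 1 base further on, each sequence runs 5′ to 3′ on the strand of its gene, and the bases come from RefSeq on build GRCm38.p6. The Timm8b window is chr9:50603651-50603900 on the plus strand, the Atp5k window is chr5:108434400-108434649 on the minus strand, and the Mrpl51 window is chr6:125191950-125192199 on the plus strand.
Timm8b: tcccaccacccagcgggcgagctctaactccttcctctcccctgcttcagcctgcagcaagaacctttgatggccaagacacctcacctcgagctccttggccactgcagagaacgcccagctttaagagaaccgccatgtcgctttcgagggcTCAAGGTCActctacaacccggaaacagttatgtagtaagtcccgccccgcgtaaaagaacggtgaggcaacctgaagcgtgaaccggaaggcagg
Atp5k: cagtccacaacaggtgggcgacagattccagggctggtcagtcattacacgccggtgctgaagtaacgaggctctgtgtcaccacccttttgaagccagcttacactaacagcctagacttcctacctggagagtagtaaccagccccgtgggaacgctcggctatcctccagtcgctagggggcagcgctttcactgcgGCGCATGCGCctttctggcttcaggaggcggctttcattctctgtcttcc
Mrpl51: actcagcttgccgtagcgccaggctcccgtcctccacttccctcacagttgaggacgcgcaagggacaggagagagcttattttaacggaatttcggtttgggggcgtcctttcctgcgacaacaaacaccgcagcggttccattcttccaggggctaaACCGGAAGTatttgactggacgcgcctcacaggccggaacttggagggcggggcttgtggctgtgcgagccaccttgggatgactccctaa
The motifs begin at base 155 in the Timm8b window, base 201 in that of Atp5k and base 160 in that of Mrpl51, counted from the 5′ end. Windows were found by symbol for 7855 of the 9913 tested genes, 236 of the 271 shared higher genes and 596 of the 784 shared lower genes. On either strand, the ERR element was in 0.331% of all windows (26 genes), 0.847% of the shared higher (2 genes) and 0.671% of the shared lower (4 genes). These are too few for the shares to be compared. The NRF1 motif was in 3.45%, 3.39% and 0.839%, and the GABP motif in 1.73%, 1.69% and 0.336%, in the same order. The shorter half-site AAGGTCA, which is contained in the ERR element, was in 3.4% of all windows, 4.66% of the shared higher and 4.87% of the shared lower. A match is a run of letters in the window and says nothing about binding, and these shares are descriptions.

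Timm8b, a small chaperone of the mitochondrial intermembrane space, read 186, 183 and 155 FPKM in brown fat, 245, 317 and 251 in soleus and 87.1, 60.6 and 73.9 in white fat. All 6 oxidative libraries were above the 3 of white fat, and soleus was above brown fat in every library, and it left the shared set without brown fat replicate 1 or 2 or soleus replicate 1 or 3, with array weights and with TPM, upper quartile, median of ratios and quantile scaling. Mrpl51, a protein of the large subunit of the mitochondrial ribosome, read 73.0, 84.6 and 74.3 FPKM in brown fat, 68.1, 81.3 and 71.9 in soleus and 31.2, 25.6 and 26.4 in white fat. Its brown fat and soleus libraries overlapped, and with TPM it was outside the shared set. The average difference was 1.55 ± 0.13 log2 units (SE) for Timm8b (adjusted p = 6.7e-07) and 1.42 ± 0.09 for Mrpl51 (adjusted p = 8.2e-08).

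Cox7a1 and Cox8b, the muscle and heart forms of cytochrome oxidase subunits 7A and 8, were abundant in both oxidative tissues and low in white fat. Cox7a1 read 2819, 3149 and 3197 FPKM in brown fat, 3244, 3886 and 3200 in soleus and 14.8, 8.40 and 42.9 in white fat. Cox8b read 6568, 6558 and 6035 FPKM in brown fat, 4243, 5623 and 4265 in soleus and 53.2, 32.4 and 112 in white fat. No oxidative library came near a white fat library for either gene, and the average difference was 7.44 ± 0.37 log2 units for Cox7a1 (adjusted p = 1.2e-08) and 6.53 ± 0.30 for Cox8b (adjusted p = 7.4e-09). Neither gene met the limit on a similar level, because the spread of white fat on the log scale widened the interval of brown fat minus soleus to -1.11 to 0.77 for Cox7a1 and -0.32 to 1.22 for Cox8b. Without white fat replicate 2, or without replicate 3, both genes met it. White fat replicate 3 was the highest white fat library for both genes and also for the brown adipocyte genes Ucp1 (7.81, 1.45 and 35.7 FPKM) and Cidea (7.2, 3.53 and 26.5 FPKM), and the part of brown adipocyte RNA in the white fat levels was not tested.

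The partner forms behaved differently from one another. Cox7a2, the widely expressed form of subunit 7A, was itself shared higher, with 609, 644 and 635 FPKM in brown fat, 445, 573 and 417 in soleus and 151, 113 and 130 in white fat (average 2.06 ± 0.12 log2 units, adjusted p = 4.9e-08). Cox8a, the widely expressed form of subunit 8, split the oxidative tissues, with 1846 ± 91.4 FPKM in brown fat, 136 ± 14.1 in soleus and 642 ± 107 in white fat (SD, n = 3). Brown fat thus held both forms of subunit 8 above white fat, and soleus held Cox8b above and Cox8a below it. Subunit 6A was no shared feature at all: Cox6a2, the muscle form, had 2728 to 3363 FPKM in soleus and 0.75 to 5.76 in brown fat, where the 3 libraries fell in the same order as by their summed myofibre markers (80.4, 409 and 237 FPKM), and the part of muscle RNA in brown fat was not tested. Cox6a1, its partner, had 3659 ± 151 FPKM in brown fat, 105 ± 11.6 in soleus and 520 ± 63.4 in white fat. Its average difference of 0.26 log2 units came from opposite changes and turned to -0.45 with quantile normalization and -0.31 with TPM.

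Of 12 muscle or heart forms of metabolic genes, all 12 were higher than white fat in the average, against 34.3% of all genes, but only 3 were shared higher. Soleus, a muscle, enters the average, so the direction of muscle forms is a description and not support. The median difference from white fat was 6.91 log2 units in soleus and 1.98 in brown fat. In the test, brown fat was below soleus for 8 of the 12. Of the 12, 4 were under 1 FPKM in all white fat libraries and so entered the tests through the oxidative tissues, among them Ckmt2, listed at 0 in white fat. The 3 shared genes were Hk2, the insulin-regulated hexokinase, Slc2a4, the insulin-regulated glucose transporter GLUT4, and Ldhb, the heart form of lactate dehydrogenase. Hk2 read 69.6, 54.3 and 68.4 FPKM in brown fat, 54.8, 57.3 and 69.1 in soleus and 16.2, 16.7 and 16.3 in white fat (1.85 ± 0.10 log2 units, adjusted p = 2.1e-08). Slc2a4 read 144, 142 and 147 FPKM in brown fat, 152, 165 and 161 in soleus and 45.5, 48.4 and 39.1 in white fat (1.76 ± 0.08 log2 units, adjusted p = 5.7e-09). For Hk2 the brown fat and soleus libraries overlapped, and for Slc2a4 every soleus library was slightly above every brown fat library. Ldhb read 388, 402 and 380 FPKM in brown fat, 569, 721 and 655 in soleus and 34.3, 26.3 and 30.2 in white fat, an average difference of 4.01 ± 0.10 (adjusted p = 2.4e-10). It sat near the limit on a similar level, with brown fat minus soleus at -0.73 (95% interval -0.98 to -0.47), and was outside it in 10 of 21 other settings, including those without any one library of brown fat, without soleus replicate 1 or 3 or without white fat replicate 3.

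Of the 12 partner forms, 7 were higher and 4 lower in the average, against 34.3% and 45.9% of all genes. The 7 include Fabp4, listed at 0 in all libraries of both fats. An exact 0 can be a failed estimate, so the call of Fabp4 is not read as a direction. Among the 12, Cox7a2 was shared higher and Cpt1a shared lower. Cpt1a, the liver form of the carnitine palmitoyltransferase that admits long-chain fatty acids to mitochondria, read 2.24, 1.88 and 1.92 FPKM in brown fat, 2.48, 1.74 and 1.97 in soleus and 15.3, 15.5 and 15.5 in white fat. The oxidative libraries overlapped each other and lay well under white fat, an average difference of -2.44 ± 0.08 log2 units (adjusted p = 8.7e-10). Slc2a1, the basal glucose transporter GLUT1, was at 2.22 ± 0.0856 FPKM in brown fat, 3.85 ± 0.429 in soleus and 2.86 ± 0.176 in white fat, and did not pass the average test. Ldha, the muscle form of lactate dehydrogenase, averaged 0.77 log2 units higher and lay at -0.16 with quantile normalization.

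**Figure D2:**
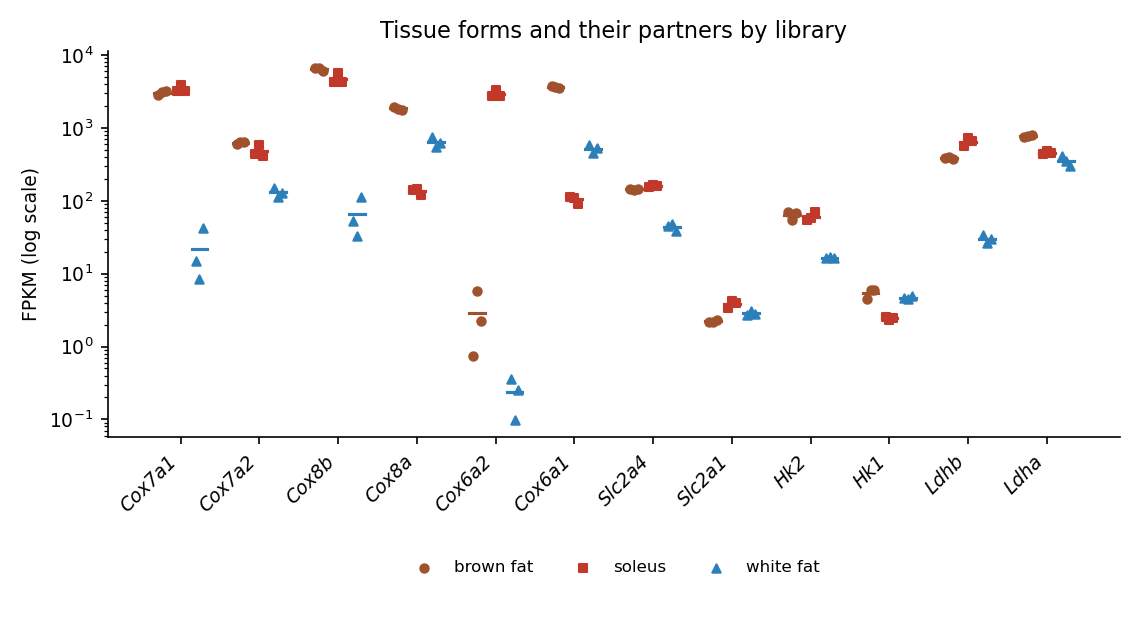
FPKM on a log scale (y axis) is drawn for 6 tissue forms, each followed by its partner form, with 1 point per library and a line at the mean of the 3 libraries of each tissue. Brown fat and soleus lie together for Cox7a1, Cox7a2, Slc2a4 and Hk2 and far apart for Cox6a2, Cox6a1 and Cox8a.

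Coq8a, an atypical kinase needed to make coenzyme Q, had the largest average difference of the shared higher genes with at least 10 FPKM in both oxidative tissues. It read 326, 445 and 420 FPKM in brown fat, 412, 443 and 496 in soleus and 7.93, 6.92 and 11.6 in white fat. The oxidative libraries overlapped each other and were far above white fat, with an average difference of 5.45 ± 0.15 log2 units (adjusted p = 3.2e-10) and brown fat minus soleus at -0.19 (95% interval -0.57 to 0.19). Chchd10, a protein of mitochondrial cristae, followed with 501, 530 and 535 FPKM in brown fat, 451, 484 and 436 in soleus and 21.3, 16.1 and 20.4 in white fat (4.60 ± 0.09 log2 units, adjusted p = 9.7e-11). Every brown fat library of Chchd10 was above every soleus library, by an amount (0.19 log2 units, interval -0.05 to 0.43) that included 0.

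Of the other 8 genes of these 10, Ldhb was described above, and the remaining 7 were less abundant. Car14, a membrane carbonic anhydrase, read 14.3, 25.6 and 17.1 FPKM in brown fat, 19.6, 17.5 and 19.8 in soleus and 0.106, 0.0385 and 0.239 in white fat (average 4.13 ± 0.15). Gmpr, a guanosine monophosphate reductase of purine interconversion, read 53.9, 82.7 and 118 FPKM in brown fat, 74.6, 81.2 and 79 in soleus and 3.88, 4.07 and 3.58 in white fat (4.05 ± 0.18). White fat was under 1 FPKM in every library for Car14 and near 4 FPKM for Gmpr, and for both genes the soleus libraries lay within the range of brown fat. Slc25a34, a member of the mitochondrial carrier family, read 20.8, 18.4 and 11.6 FPKM in brown fat, 19.4, 16.2 and 18 in soleus and 0.193, 0.304 and 0.39 in white fat (3.81 ± 0.15). Me3, the mitochondrial malic enzyme that uses NADP, read 11.8, 13.7 and 13.5 FPKM in brown fat, 11.5, 12 and 12.7 in soleus and 0.245, 0.223 and 0.335 in white fat (3.41 ± 0.07). The oxidative libraries overlapped for both.

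Mtfp1, which acts in mitochondrial fission, read 30.9, 34.7 and 32.6 FPKM in brown fat, 50.9, 56.9 and 57.2 in soleus and 2.62, 1.94 and 2.1 in white fat (3.76 ± 0.08). Clic5, a chloride intracellular channel family protein, leaned the other way, with 40.2, 50.8 and 48.4 FPKM in brown fat, 28.8, 28.9 and 34.2 in soleus and 1.44, 1.85 and 2.16 in white fat (3.78 ± 0.10). Mtfp1 left the shared set without brown fat replicate 2 or soleus replicate 1 and with upper quartile, median of ratios and quantile scaling. Syngr1, a synaptogyrin best known from synaptic vesicles, was at 29.6 ± 3.16 FPKM in brown fat, 30.4 ± 2.36 in soleus and 1.58 ± 0.282 in white fat (3.59 ± 0.09). Adjusted p for these 7 genes lay between 9.1e-11 and 6.9e-09. Car14, Slc25a34 and Me3 were under 1 FPKM in every white fat library and entered the tests only through the oxidative tissues. They could be shared only as higher, so their direction is a description and not support.

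**Figure D3:**
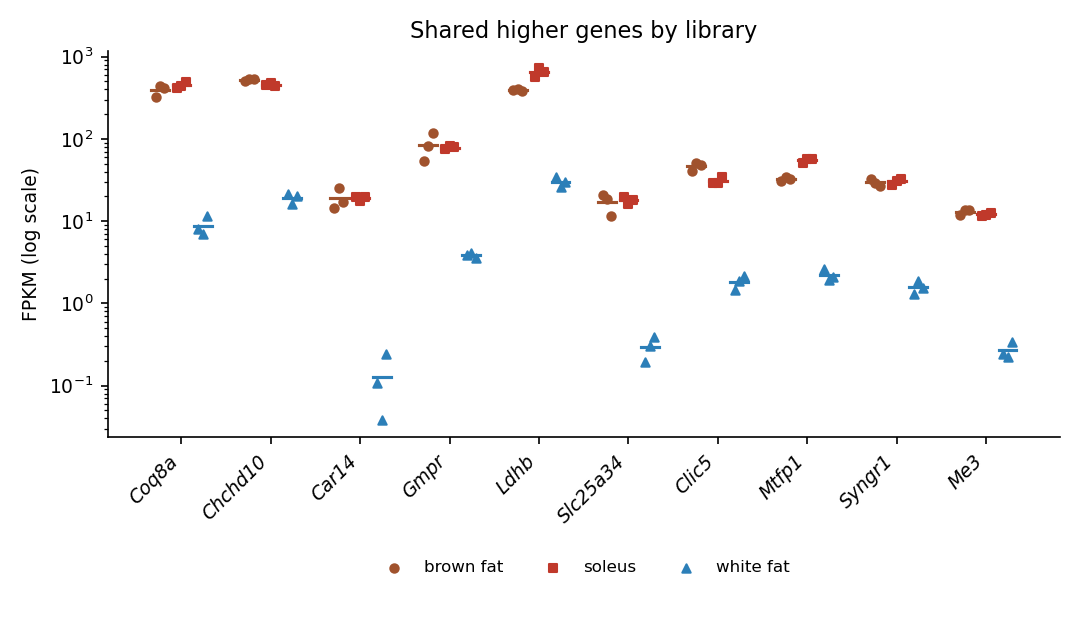
FPKM on a log scale (y axis) is drawn for the 10 shared higher genes with the largest average difference and at least 10 FPKM in both oxidative tissues, with 1 point per library and a line at the mean of each tissue. For all 10 genes the brown fat and soleus points lie together above white fat, and Ldhb and Mtfp1 show soleus above brown fat.

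Complex I, which takes electrons from NADH, had the highest share of shared genes of the 19 mitochondrial lists. All 34 tested subunits were higher in the average and 26 of the 34 (76.5%) were shared higher, with a median of 2.32 log2 units (2.33 in brown fat and 2.10 in soleus, against medians of 0.03 and -0.35 over all genes). Ndufb5, an accessory subunit of the membrane arm, read 413, 416 and 413 FPKM in brown fat, 496, 636 and 490 in soleus and 72.5, 56.8 and 64.4 in white fat (2.86 ± 0.11, adjusted p = 2e-09). Ndufv2, a core subunit of the NADH-binding module, read 399, 427 and 442 FPKM in brown fat, 334, 417 and 330 in soleus and 65.3, 55.9 and 60.3 in white fat (2.67 ± 0.10, adjusted p = 1.5e-09). Every soleus library was above every brown fat library for Ndufb5, while Ndufv2 overlapped, and neither difference reached 1 log2 unit. Ndufb5 left the shared set with upper quartile and median of ratios scaling. Ndufb9 had the highest mean of the shared subunits, 1416 ± 25.3 FPKM in brown fat, 1555 ± 192 in soleus and 282 ± 23.7 in white fat. The 8 subunits outside the shared set included Ndufs3, which missed the limit by the smallest margin of any gene on the higher side, with brown fat minus soleus at 0.72 (95% interval 0.44 to 1.001).

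Complexes II and III had 14 tested genes, all 14 higher and 9 of them shared, with a median of 2.48 log2 units. Uqcrc1, a core protein of complex III, read 1000, 1011 and 983 FPKM in brown fat, 568, 614 and 617 in soleus and 117, 96.7 and 114 in white fat (2.82 ± 0.09, adjusted p = 5.7e-10). Brown fat was above soleus in every library, close to the limit, and Uqcrc1 left the shared set without brown fat replicate 1 or 3 or soleus replicate 2 or 3. Sdhb, the iron-sulphur subunit of succinate dehydrogenase, read 1104, 1117 and 1128 FPKM in brown fat, 735, 899 and 737 in soleus and 152, 128 and 144 in white fat (2.72 ± 0.10, adjusted p = 1.4e-09). Uqcrq, a small subunit of complex III, was nearly equal in the oxidative tissues, with 1878 ± 22.9 FPKM in brown fat, 1827 ± 224 in soleus and 287 ± 47.8 in white fat.

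Complex IV, cytochrome oxidase, had 16 tested genes, of which 15 were higher, 1 lower (Cox8a) and 9 shared higher, with a median of 2.33. Cox5a, which binds next to the catalytic core, read 1417, 1372 and 1453 FPKM in brown fat, 1336, 1528 and 1335 in soleus and 162, 137 and 151 in white fat (3.22 ± 0.09, adjusted p = 4.1e-10). Cox7b read 747, 764 and 776 FPKM in brown fat, 685, 872 and 685 in soleus and 96.7, 78.1 and 84.7 in white fat (3.11 ± 0.10, adjusted p = 9.6e-10). Both subunits had overlapping brown fat and soleus libraries and about the same mean in each. Ndufa4, now counted as a subunit of this complex, had the highest mean of the shared members, at 3501 ± 134 FPKM in brown fat, 3026 ± 397 in soleus and 655 ± 63.4 in white fat. Outside the set were Cox6a1, Cox6a2, Cox7a1, Cox8a and Cox8b, described above, with Cox4i2 and Cox7a2l.

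ATP synthase had 15 tested genes, 14 higher and 8 shared, with a median of 1.99. The only member that was lower in the average was Atpif1, the inhibitor of the enzyme, at -0.98. Atp5k, the small e subunit whose upstream window is shown above, read 3672, 3367 and 3496 FPKM in brown fat, 4118, 4918 and 3900 in soleus and 812, 598 and 657 in white fat (2.5 ± 0.13, adjusted p = 1.8e-08). Atp5j2, subunit f, read 1789, 1868 and 1793 FPKM in brown fat, 1248, 1625 and 1330 in soleus and 356, 251 and 287 in white fat (2.43 ± 0.13, adjusted p = 2.1e-08). Atp5k left the shared set with upper quartile and median of ratios scaling. It leaned to soleus and Atp5j2 to brown fat in every library. Such small subunits have processed copies elsewhere in the genome, and reads that fit several places make their values less certain.

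Genes that supply and build the chain were mostly higher too, with smaller median differences. For coenzyme Q synthesis all 12 tested genes were higher and 7 were shared, with a median of 1.66, and Coq9, a lipid-binding protein of that pathway, was at 282 ± 8.02 FPKM in brown fat, 269 ± 17.1 in soleus and 47.2 ± 3.1 in white fat. Assembly factors had 21 of 23 higher, 0 lower and 8 shared, with a median of 1.12. Ecsit, a complex I assembly factor, was at 71.5 ± 4.6, 58.2 ± 4 and 12.9 ± 0.991 FPKM in brown fat, soleus and white fat. Cox10, which makes haem for cytochrome oxidase, was at 16.8 ± 2.08, 15.6 ± 0.868 and 2.63 ± 0.0976 FPKM in the same order, and Ecsit and Cox10 averaged 2.24 log2 units higher (adjusted p = 8.8e-10 and 1.1e-09).

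The mitochondrial ribosome, which translates the subunits encoded by mitochondrial DNA, had 73 tested genes, 72 of them higher, 0 lower and 27 shared, with a median of 1.14. Mrpl42 read 194, 203 and 182 FPKM in brown fat, 272, 340 and 296 in soleus and 55, 45.1 and 44.8 in white fat, and Mrpl47 read 38, 44.3 and 40.1 in brown fat, 30.8, 35.3 and 31.5 in soleus and 8.44, 8.5 and 8.45 in white fat. Mrpl42 was higher in soleus and Mrpl47 in brown fat, and both were more than 1 log2 unit above white fat in each tissue. Mrpl42 left the shared set with upper quartile and median of ratios scaling. With so small a median difference this group depended on scaling, and 7 members were shared with TPM against 39 with median of ratios. The import and cristae list had 27 of 28 higher, 0 lower and 8 shared (median 1.10), led by Chchd10 and by Chchd3, a cristae organiser at 319 ± 14.5 FPKM in brown fat, 315 ± 24.8 in soleus and 57.2 ± 2.45 in white fat. The cytosolic ribosome stood apart from these lists, with 13 of 65 genes higher, 16 lower, 0 shared and a median of 0.01.

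The citrate cycle and beta-oxidation, which feed the chain, were higher in each tissue for 13 of 14 and 10 of 12 genes, with 1 shared gene between them. In the citrate cycle all 14 tested genes were higher and 1 was shared, with a median of 3.03 in brown fat and 1.63 in soleus, and brown fat was above soleus in the test for 12 of the 14. The shared gene was Mdh2, mitochondrial malate dehydrogenase, with 995, 1000 and 1038 FPKM in brown fat, 815, 915 and 917 in soleus and 235, 197 and 199 in white fat (2.17 ± 0.09, adjusted p = 4.2e-09). In beta-oxidation all 12 were higher and 0 were shared, with a median of 2.87 in brown fat and 0.99 in soleus, and brown fat was above soleus for all 12. Acaa2, the thiolase that ends each cycle, shows this step, with 1709 ± 68.8 FPKM in brown fat, 283 ± 11.1 in soleus and 83.1 ± 7.92 in white fat. Hadhb, of the trifunctional protein, stood at 236 ± 10.1, 49.5 ± 3.94 and 13.4 ± 0.793 FPKM in brown fat, soleus and white fat. Of 16 tested genes for ketone and branched-chain amino acid breakdown, 6 were higher and 5 lower, shares near or under the 34.3% and 45.9% over all genes, and 0 were shared. Their median was 0.12 in the average and -1.24 in soleus.

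Pyruvate entry had 10 of 11 genes higher, with 3 shared higher and 1 shared lower, and 3 of these 4 were pyruvate dehydrogenase kinases, which switch off the enzyme complex that turns pyruvate into acetyl-CoA. Pdk2 read 152, 168 and 155 FPKM in brown fat, 164, 173 and 183 in soleus and 30.3, 24.9 and 36.8 in white fat (2.41 ± 0.11, adjusted p = 6.2e-09). Pdk1 read 35.3, 31.1 and 31 FPKM in brown fat, 17.8, 20.9 and 25.1 in soleus and 6.17, 5.9 and 5.63 in white fat (1.98 ± 0.10, adjusted p = 1.2e-08). Pdk3 ran the other way, with 0.595, 0.599 and 0.633 FPKM in brown fat, 0.828, 0.55 and 0.664 in soleus and 6.12, 5.52 and 6.35 in white fat (-2.09 ± 0.07, adjusted p = 8.8e-10). Pdk3 was under 1 FPKM in every brown fat and soleus library, so it entered the tests only through white fat and could only be lower. With a pseudocount of 5 it left the shared set. In these libraries the oxidative tissues held Pdk1 and Pdk2 above white fat, and the lower Pdk3 is a description. Glycolysis had 14 of 16 higher, 2 lower and 5 shared higher, with Aldoa, the main muscle aldolase, just inside the limit (brown fat minus soleus -0.72, 95% interval -0.99 to -0.45). Aldoa was at 1927 ± 103 FPKM in brown fat, 3179 ± 131 in soleus and 553 ± 62.9 in white fat, and it left the shared set without any one library of brown fat or soleus. It also left with upper quartile, median of ratios and quantile scaling.

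**Figure D4:**
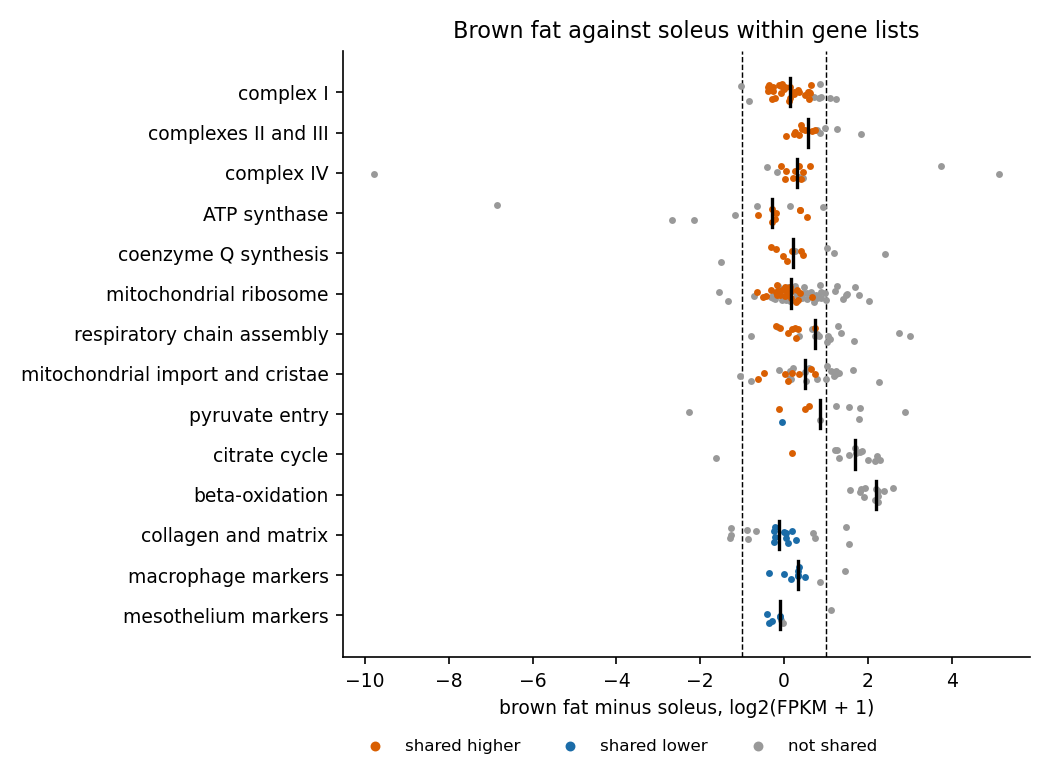
Each point is a tested gene of the named list, placed by brown fat minus soleus in log2(FPKM + 1) (x axis), coloured orange if shared higher, blue if shared lower and grey otherwise, with a black bar at the list median and dashed lines at 1 log2 unit. Most complex I genes lie between the dashed lines, while citrate cycle and beta-oxidation genes lie mostly to the right of them.

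Of 9 regulators of mitochondrial biogenesis, 4 of them under 1 FPKM in all white fat libraries, 7 were higher, 0 lower and only Ppargc1a, which encodes PGC-1alpha, was shared higher. It read 20.8, 8.92 and 12.1 FPKM in brown fat, 11, 7.59 and 10.6 in soleus and 0.847, 0.783 and 0.936 in white fat. The oxidative libraries overlapped and were all above white fat, an average difference of 2.72 ± 0.20 log2 units (adjusted p = 3.4e-07). Ppargc1a was under 1 FPKM in every white fat library, so it entered the tests only through the oxidative tissues. Its direction is a description and not support. Its interval of brown fat minus soleus was -0.11 to 0.94, and it left the shared set without brown fat replicate 2 or 3 or soleus replicate 1 or 3. The related genes, chosen for naming after their values were seen, were less even. Ppargc1b, the PGC-1beta gene, had 22.4 ± 2.29 FPKM in brown fat, 3.55 ± 0.223 in soleus and 0.805 ± 0.115 in white fat, and Ppara, a receptor for fatty acids, had 83.3 ± 3.64, 8.43 ± 1.38 and 1.46 ± 0.189. Esrrg, an oestrogen-related receptor, leaned to soleus with 5.31 ± 0.691 FPKM in brown fat, 14.8 ± 2.87 in soleus and 0.132 ± 0.0794 in white fat. Nrf1, whose motif was searched above, was at 3.25 ± 0.171, 3.14 ± 0.281 and 3.19 ± 0.212 FPKM in brown fat, soleus and white fat, and did not pass the test.

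On the lower side, Retnla, a secreted protein of adipose tissue and of alternatively activated macrophages, had the largest average difference among shared genes with at least 10 FPKM in white fat. It read 24.7, 33 and 39.3 FPKM in brown fat, 56, 31.3 and 23.6 in soleus and 1616, 1118 and 2066 in white fat, an average difference of -5.50 ± 0.27 log2 units (adjusted p = 1.1e-08). The oxidative libraries overlapped, and Retnla left the shared set without brown fat replicate 3 or soleus replicate 2 or 3. It also left with upper quartile, median of ratios and quantile scaling. Ccdc80, a secreted matrix protein of fat, was steadier, with 12.4, 10.5 and 15.5 FPKM in brown fat, 17.6, 10.7 and 9.84 in soleus and 431, 429 and 429 in white fat (-5.0 ± 0.16, adjusted p = 8.7e-10). Soleus replicate 1 was the highest soleus library for both genes, as it was for the adipocyte markers (159 FPKM summed, against 62.5 and 31.1 in replicates 2 and 3), and the part of fat RNA in the soleus levels was not tested.

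Sult1e1, a sulphotransferase that inactivates oestrogens, read 0.137, 0.29 and 0.305 FPKM in brown fat, 1.31, 0.331 and 0 in soleus and 61, 32.1 and 79.3 in white fat (-5.35 ± 0.29, adjusted p = 2.4e-08). It too was highest in soleus replicate 1, and it left the shared set without brown fat replicate 1, 2 or 3, soleus replicate 2 or 3 or white fat replicate 1. Chrdl1, a secreted BMP antagonist, read 1.3, 1.09 and 1.49 FPKM in brown fat, 1.39, 0.783 and 0.482 in soleus and 55.6, 55.3 and 60.2 in white fat (-4.82 ± 0.13, adjusted p = 2.9e-10). Apcdd1, an inhibitor of Wnt signalling, read 1.64, 1.32 and 2.73 FPKM in brown fat, 1.6, 0.805 and 0.626 in soleus and 57.9, 57.8 and 50.3 in white fat (-4.57 ± 0.17, adjusted p = 1.7e-09). The groups overlapped between brown fat and soleus for these genes, and Apcdd1 left the shared set without brown fat replicate 1 or 2 or soleus replicate 1. A pseudocount of 0.1, under which values near 0 spread out, also took Sult1e1, Chrdl1, Apcdd1, Cd209f and Slc6a13 out of the shared set. Slc6a13, a transporter of GABA and taurine, was at 0.675 ± 0.224 FPKM in brown fat, 0.546 ± 0.425 in soleus and 33.5 ± 7.1 in white fat.

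**Figure D5:**
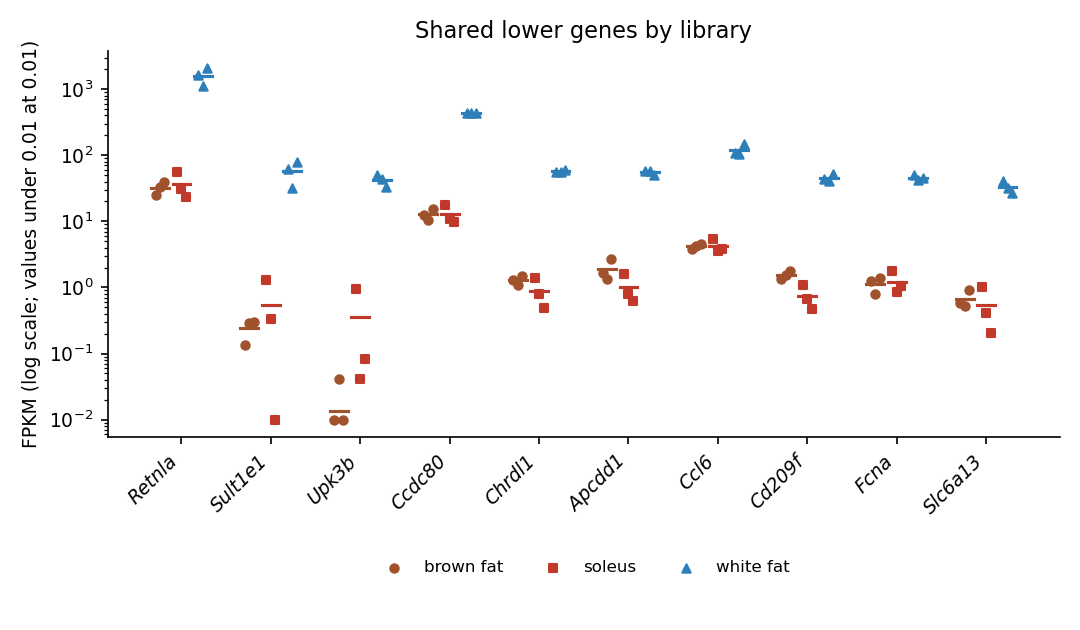
FPKM on a log scale (y axis, with values under 0.01 drawn at 0.01) is drawn for the 10 shared lower genes with the largest average difference and at least 10 FPKM in white fat, with 1 point per library and a line at the mean of each tissue. White fat lies above brown fat and soleus for all 10 genes, and Upk3b and Sult1e1 have libraries listed at 0.

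Macrophage genes were low in both oxidative tissues. All 10 tested markers were lower in the average, against 45.9% of all genes, and 8 of 10 were shared lower, with a median of -3.40, and none of the 10 had entered the tests through white fat alone. The summed markers were 52.6 to 62.2 FPKM in brown fat, 36.6 to 50.9 in soleus and 521 to 639 in white fat. C1qb, a chain of complement C1q made by macrophages, read 12.7, 15.2 and 12.4 FPKM in brown fat, 12.2, 8.8 and 10 in soleus and 139, 121 and 156 in white fat (-3.45 ± 0.11, adjusted p = 8.5e-10). Lgals3, galectin 3, read 1.81, 1.54 and 1.82 FPKM in brown fat, 3.19, 2.72 and 1.67 in soleus and 42.1, 45.9 and 39.7 in white fat (-3.82 ± 0.12, adjusted p = 8e-10). Brown fat was above soleus in every library for C1qb, and the 2 overlapped for Lgals3. Mrc1, the mannose receptor of tissue macrophages, was at 2.25 ± 0.37 FPKM in brown fat, 1.59 ± 0.413 in soleus and 30.9 ± 4.12 in white fat.

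The top 10 lower genes held 3 more that are known from macrophages. Ccl6, a chemokine, read 3.86, 4.17 and 4.51 FPKM in brown fat, 5.45, 3.53 and 3.79 in soleus and 108, 104 and 145 in white fat (-4.52 ± 0.13, adjusted p = 4.6e-10). Cd209f, a C-type lectin, read 1.33, 1.53 and 1.78 FPKM in brown fat, 1.11, 0.669 and 0.479 in soleus and 43.4, 40.7 and 52.4 in white fat (-4.46 ± 0.12, adjusted p = 2.9e-10). Fcna, ficolin A, was at 1.14 ± 0.3 FPKM in brown fat, 1.22 ± 0.466 in soleus and 45.9 ± 4.24 in white fat. For Ccl6 and Fcna the oxidative libraries overlapped, and for Cd209f every brown fat library was above every soleus library.

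Mesothelium, the cell layer that covers visceral fat depots, had markers near 0 in both oxidative tissues. Of its 8 tested markers 7 had no brown fat or soleus library at 1 FPKM, so they entered the tests only through white fat and had to be lower; 8 of 8 were called lower (45.9% over all genes) and 5 were shared, which is a description and not support. Krt8 and Wt1 were listed at 0 in brown fat. The summed markers were 1.39 to 1.61 FPKM in brown fat, 0.597 to 2.85 in soleus and 84.9 to 126 in white fat. Upk3b, a uroplakin of mesothelial cells, read 0, 0.0406 and 0 FPKM in brown fat, 0.932, 0.0414 and 0.0835 in soleus and 50.1, 43.9 and 33.2 in white fat. Msln, mesothelin, read 0.00873, 0 and 0.016 FPKM in brown fat, 0.665, 0.176 and 0.192 in soleus and 22.6, 20.9 and 12.6 in white fat. Soleus replicate 1 was the highest oxidative library for both genes, and Upk3b left the shared set without soleus replicate 2 or 3. A pseudocount of 0.1 left 0 of the 8 markers shared, since values near 0 in brown fat and soleus then no longer look alike.

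Connective tissue genes were lower in both oxidative tissues at higher levels, where the pseudocount weighs less. Of 20 collagen and matrix genes all 20 were lower and 10 shared, with a median of -2.18. Col3a1, a fibrillar collagen, read 87.7, 66.9 and 71.7 FPKM in brown fat, 70.8, 58.8 and 81.1 in soleus and 329, 478 and 369 in white fat (-2.41 ± 0.14, adjusted p = 4.7e-08). Nid1, a basement membrane linker, read 15.9, 13.2 and 14.5 FPKM in brown fat, 16.5, 10.9 and 15.4 in soleus and 125, 160 and 148 in white fat (-3.24 ± 0.13, adjusted p = 2.4e-09). The brown fat and soleus libraries overlapped for both. Efemp1, a fibulin, was at 6.85 ± 1.31 FPKM in brown fat, 5.78 ± 0.592 in soleus and 116 ± 8.4 in white fat. Progenitor and fibroblast markers had 7 of 7 lower and 2 shared (Pdgfra and Lum), and their summed level was 135 to 162 FPKM in brown fat, 268 to 329 in soleus and 834 to 1035 in white fat. Of the endothelial markers, 5 of 11 were higher, 3 lower and 0 shared, against 34.3% higher, 45.9% lower and 7.91% shared lower over all genes, with a summed level of 145 to 160 FPKM in brown fat, 91.2 to 99.7 in soleus and 86.4 to 129 in white fat.

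Complement genes, 7 of 8 of them lower, had 6 of 8 shared lower with a median of -2.73. Of the 8, 3 had entered the tests only through white fat. The 1 higher gene, Cfd, was listed at 0 in white fat. An exact 0 can be a failed estimate, so the call of Cfd is not read as a direction. Serping1, the C1 inhibitor, read 20.4, 23.2 and 23.7 FPKM in brown fat, 42.9, 34.5 and 34.5 in soleus and 170, 138 and 182 in white fat. Serping1 was higher in soleus than in brown fat in every library and left the shared set without brown fat replicate 2 or 3 or soleus replicate 2 or 3. It also left with a pseudocount of 0.1 and with TPM, upper quartile, median of ratios and quantile scaling. The 13 hormones and selective genes of white fat were listed with earlier results of these data known, so their direction is a description and not support. Of the 13, 1 entered the tests only through white fat, and Tcf21 was listed at 0 in a tissue. All 13 were lower with a median of -5.0, but only 3 were shared. Leptin (Lep) was 1 of those outside the limit, with 5.95, 8.91 and 13.3 FPKM in brown fat, 5.99, 1.67 and 0.57 in soleus and 213, 221 and 223 in white fat. Among Hox genes of groups 6 to 13, positional genes of the trunk, 5 of 11 were higher, 5 lower and 3 shared lower. Over all genes 34.3% were higher and 7.91% shared lower. Of the 11, 1 entered the tests only through white fat and could only be lower. The 5 lower genes are about the 45.9% of all genes, 6 of the 11 were under 1 FPKM in all white fat libraries, and Hoxa10, Hoxa11 and Hoxc11 were listed at 0 in a tissue. Hoxc8 had the largest difference of the shared ones, with 1.3, 1.42 and 1.47 FPKM in brown fat, 1.51, 0.768 and 0.776 in soleus and 44.5, 38.5 and 39.9 in white fat (-4.26 ± 0.11, adjusted p = 2.6e-10).

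Lysosomal genes were lower in 16 of 17 cases, with 3 shared and a median of -1.03, and genes of the secretory pathway in 19 of 21, with 1 shared and a median of -0.73. Ctsl, a lysosomal protease, read 58.9, 62.1 and 54.9 FPKM in brown fat, 58.3, 63.1 and 57.3 in soleus and 186, 192 and 178 in white fat (-1.64 ± 0.07, adjusted p = 3.9e-09). Its brown fat and soleus libraries overlapped. Sec24d, a coat protein of vesicles that leave the endoplasmic reticulum, was at 2.77 ± 0.262 FPKM in brown fat, 3.28 ± 0.803 in soleus and 18.8 ± 2.37 in white fat.

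The limit on a similar level cut through a continuous range. On the lower side, Sufu was just inside, with brown fat minus soleus at 0.84 and a 95% interval of 0.68 to 0.999, and Ctsh just outside at -0.77 with -1.003 to -0.53. Genes listed at 0 in all 3 libraries of a tissue were kept out, 6 on the higher and 11 on the lower side of those at least 1 log2 unit from white fat in both tissues. Among them Gsn, the actin-severing protein gelsolin, was listed at 0 in all white fat libraries and read 331, 334 and 366 FPKM in brown fat and 379, 282 and 253 in soleus. Med16, a Mediator subunit, was likewise listed at 0 in white fat, with 5.07, 4.98 and 4.35 FPKM in brown fat and 7.10, 7.59 and 8.70 in soleus. An exact 0 of this kind can be a failed estimate, and both genes were picked for naming after their values were seen.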

How the data were processed

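RNA-seq measured transcript levels in 9 tissue libraries. Total RNA was extracted with TRIzol and libraries came from an Illumina TruSeq kit, per the labels' protocols; per the submitters' processing notes, TopHat 1.4.1 and Cufflinks 2.0.1 were used with mouse build mm9. The authors deposited FPKM values in a matrix of 18401 RefSeq rows. A RefSeq gene table named 18305 rows and GENCODE 38 more, and rows with no symbol (55) or several (3), holding 0.0339% to 0.36% of a library's FPKM, were left out. The 541 symbols with several rows were summed. The gene table is on build GRCm38.p6, not mm9, and supplied names and promoter sequences only.

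Groups came from the sample labels. limma 3.58.1 in R 4.3.3 fitted all 9 libraries on log2(FPKM + 1) with a variance trend and 6 residual degrees of freedom, and tests were two-sided with Benjamini-Hochberg adjustment within each contrast. Nothing in the labels says that the libraries of a tissue came from separate animals, so p-values measure the spread between these libraries. Error after ± is the SD over 3 libraries for FPKM and the SE for log2 differences. The fit was tested on simulated data. Depth in reads is not given in the sources used here, so no counting interval is printed; precision is poorest under 1 FPKM and in white fat replicate 2, the shallowest library. Figures were drawn with matplotlib 3.10.9.

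The comparison, its members and the 43 gene lists were chosen with earlier results of these data known. Named genes were Cox7a1 and Cox8b with their partner forms, the 10 shared genes per direction with the largest average difference (means of at least 10 FPKM), from each list the 2 shared genes per direction with the largest difference and the shared gene with the highest mean, or called genes where none was shared, and the pairs of tissue forms. Genes outside this rule are named as chosen after their values were seen, as are Timm8b and Mrpl51, shown for their promoters. Alternatives covered the pseudocount, the filter, scaling, the variance model, the replicate block, the treatment of several rows, the limits of the shared set and each library left out in turn.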

Additional observations from a re-analysis of the deposited data

Results flagged for a closer look

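For 11 of the named genes brown fat and soleus differed from white fat in opposite directions and the difference between the 2 tissues passed limma's test, so the average says little about either. The widest split was in Pfkl, the liver form of phosphofructokinase, with brown fat minus soleus at 5.61 log2 units, brown fat 3.14 above white fat and soleus 2.47 below it (-2.47). Cox6a1 followed at 5.12 (2.82 in brown fat and -2.30 in soleus), then Eno1, the widely expressed enolase, at 4.97 (2.98 and -1.99). Crls1, the cardiolipin synthase, stood at 3.82 (2.64 and -1.18), Cox8a at 3.75 (1.53 and -2.22), Pgam1 at 3.58 (2.10 and -1.49) and Pfkp at 3.53 (1.25 and -2.28). Slc25a5, an ADP/ATP carrier, stood at 2.81 (1.07 and -1.75), Mccc1, of leucine breakdown, at 2.62 (0.49 and -2.13) and Cat, catalase, at 1.91 (0.38 and -1.53). Slc2a1 was the only one of the 11 with soleus above brown fat, at -0.59 (-0.26 in brown fat and 0.33 in soleus). Pfkl, Pfkp, Pgam1, Eno1, Cox6a1 and Cox8a are the partner forms of enzymes or subunits with a muscle form.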

How the results depend on the processing

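TPM rescaling gave 1867 higher, 6832 lower, 144 shared higher and 1326 shared lower genes, and kept 138 of the 271 shared higher and 782 of the 784 shared lower genes. A minimum of 5 FPKM gave 2885 lower and 437 shared lower genes, and a pseudocount of 5 gave 391 shared lower genes. An interval within 1.5-fold left 155 shared higher genes, and no minimum difference gave 1177 shared higher and 1974 shared lower genes. A mean of at least 1 FPKM in brown fat and soleus, a limit chosen after seeing the data, left 343 shared lower genes. Leaving out each of the 9 libraries in turn gave 3186 to 3404 higher, 4356 to 4590 lower, 258 to 287 shared higher and 766 to 801 shared lower genes. Average differences changed sign for Cox6a1 (-0.45 with quantile normalization, -0.31 with TPM), Ldha (-0.16 with quantile normalization) and, with TPM, Eno1 (-0.065), Npc1 (-0.073), Nrf1 (-0.44), Pfkl (-0.20), Pgam1 (-0.15) and Slc2a1 (-0.40); the cause was not tested. No pairing by replicate number was seen: residuals of libraries with the same number correlated at -0.22 to 0.0774 across tissues and those with other numbers at up to 0.361. With 3 libraries per tissue, these correlations cannot show whether tissues came from the same animals. With the replicate number as a block, 3317 genes were higher, 4473 lower, 266 shared higher and 783 shared lower. Read depth per library is unknown, which limits genes near 0 most.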

Other observations

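The genes here were chosen after their values were seen and are given as descriptions. Several shared higher genes act on mitochondrial RNA. Lrpprc, which stabilises mitochondrial messenger RNA, read 48.8, 50.9 and 46.3 FPKM in brown fat, 28.8, 30.1 and 33.5 in soleus and 9.98, 11.1 and 9.58 in white fat. Fastk, of a family that processes these RNAs, read 67.5, 74.1 and 67.1 FPKM in brown fat, 79, 94.1 and 88.9 in soleus and 18.2, 15.4 and 14 in white fat, and its relatives Tbrg4 and Fastkd2 averaged 1.81 and 1.21 log2 units above white fat. Taco1, an activator of cytochrome oxidase translation, averaged 2.10, Mterf2 1.95, Ptcd3 1.48 and Grsf1 1.31. With TPM, Lrpprc, Tbrg4, Fastkd2, Ptcd3 and Grsf1 were not in the shared set.

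The uncoupling proteins Ucp2 and Ucp3 were shared in opposite directions. Ucp3, known from muscle and brown fat, read 56.8, 53.8 and 57.7 FPKM in brown fat, 39, 31.4 and 36.9 in soleus and 9.82, 8.44 and 9.7 in white fat (2.15 ± 0.08 log2 units). Ucp2, known from immune cells among others, read 6.45, 6.34 and 6.36 FPKM in brown fat, 4.1, 4.21 and 4.63 in soleus and 30.6, 28.8 and 37.8 in white fat (-2.41 ± 0.08). Brown fat was above soleus in every library for both. Flcn and Fnip1, partners in a complex that acts with AMP-activated protein kinase, averaged 1.49 and 1.45 above white fat, and Stradb and Cab39, which bind the upstream kinase LKB1, 1.70 and 1.21. With TPM, Flcn, Fnip1, Cab39 and Vegfa were not in the shared set. Vegfa, the main growth factor of blood vessels, read 79.5, 85.1 and 83.8 FPKM in brown fat, 94.4, 82.4 and 80.5 in soleus and 27.4, 33.5 and 24.7 in white fat, and Egln1, an oxygen-sensing hydroxylase, averaged 1.79 higher.

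On the lower side, genes known from resident macrophages of connective tissue were shared. Folr2 read 2.29, 2.97 and 2.54 FPKM in brown fat, 3.95, 2.33 and 2.88 in soleus and 64.3, 50.7 and 65.9 in white fat, and Lyve1, also known from lymphatic vessels, had 1.2 ± 0.411, 1.78 ± 0.212 and 33.9 ± 6.14 FPKM in brown fat, soleus and white fat. F13a1 averaged -3.83, Pf4 -3.20 and Ccl9 -3.58. The lectins Cd209d, Cd209b and Cd209g, related genes of a family whose reads may have been divided, averaged -3.82, -3.40 and -3.33. Cd209b and Cd209g were under 1 FPKM in every brown fat and soleus library, so they entered the tests only through white fat and could only be lower. With a pseudocount of 0.1, Cd209d, Cd209b and Cd209g were not in the shared set. Igfbp4, which binds insulin-like growth factors, read 26, 24.6 and 27.1 FPKM in brown fat, 30.1, 23.6 and 23.6 in soleus and 321, 319 and 278 in white fat, and Timp4, an inhibitor of matrix proteases, 17.3 ± 2.77, 18.2 ± 2.22 and 232 ± 23.8 in brown fat, soleus and white fat.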
